A study of Drosophila melanogaster with 6 samples.

Results

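Cmi peaks of the Drosophila embryo were set against those of the S2 cell line, by pairing every embryo and S2 peak on the chromosome arms 2L, 2R, 3L, 3R, 4 and X that had at least 1 bp in common. On these arms the embryo list held 15013 peaks and the S2 list 5750, together 20763 of the 37144 peaks in the 4 lists of the series. The other lists come from wandering larvae of the third instar (6426 peaks on the arms) and white prepupae (9107), and are used here as readouts that the pairing did not draw on. The S2, larva and prepupa lists each come from 1 ChIP-seq library made from formaldehyde-fixed chromatin with an antiserum against Cmi, and each has an input library that gives no values of its own here. The embryo list is the submitters' analysis of data published earlier and belongs to none of the 6 samples. The labels give no age for these embryos. They give the genotype Y cn bw sp for every sample, the S2 cells included.

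Cmi, also called Lpt, is a subunit of the Drosophila MLR complex, a COMPASS-like assembly around the methyltransferase Trr. The complex places monomethyl marks on lysine 4 of histone H3, mainly at enhancers, and its mammalian relatives are the KMT2C and KMT2D complexes. S2 cells are a male, macrophage-like line derived from late embryos, with a chromosome copy number that departs from that of the fly. The embryo list, in contrast, was drawn from whole animals with all their cell types, and a site bound in few cells of an embryo can fall below the calling limit. Sequencing depth is unknown for all lists, because the files give the position of each peak and no height or read count. A peak absent from a list was not called there, and Cmi may still have been bound below the calling limit. With 1 list per source there is no replicate error and no test of the source. The 95% intervals given are exact binomial (Clopper-Pearson) ones, cover the number of peaks only and treat neighbouring peaks as independent. Coordinates are on the build dm3 and counted from 1. The gene tables at hand are on another build, so peaks are given by position and not by gene.

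The S2 list held a minority of the embryonic Cmi peaks, while most S2 peaks had an embryonic counterpart. Of the embryo peaks, 3749 (25.0%, 24.3 to 25.7) overlapped an S2 peak and 11264 did not. Of the S2 peaks, 3351 (58.3%, 57.0 to 59.6) overlapped an embryo peak and 2399 did not. The S2 list had 38.3 peaks for each 100 embryo peaks, and the part of list length in these shares was not tested. In base pairs, the embryo list covered 13.0 Mb, the S2 list 7.39 Mb and both together 3.45 Mb. The common sequence was 26.5% of the embryonic and 46.6% of the S2 sequence. When only as many of the widest embryo peaks were taken as there are S2 peaks, 39.5% of them had an S2 counterpart. With every peak set to 500 bp around its midpoint, the share of all embryo peaks fell to 15.7%. Few pairs depended on the 1 bp limit: 46 S2 peaks shared no more than 50 bp with the embryo list, the smallest overlap being 2 bp, and 48 unpaired S2 peaks lay within 50 bp of an embryo peak, the nearest of them touching it.

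Wide peaks were common to embryo and S2 cells far more often than narrow ones. Of the 6889 embryo peaks under 500 bp, 15.1% (14.2 to 15.9) had an S2 counterpart. The share was 22.6% (21.4 to 23.9) for 500 to under 1000 bp, 36.8% (35.0 to 38.7) for 1000 to under 2000 bp and 61.2% (58.1 to 64.3) for 2000 to under 4000 bp. Among the 219 embryo peaks of 4000 bp or more it reached 78.1% (72.0 to 83.4), with 48 peaks of this size absent from S2 cells. S2 peaks followed the same order on a higher level, from 46.1% (43.7 to 48.5) of the 1729 peaks under 500 bp to 90.5% (86.5 to 93.6) of the 294 peaks of 4000 bp or more. The median width of an embryo peak was 917 bp with and 485 bp without an S2 counterpart. For S2 peaks the medians were 890 bp with and 593 bp without an embryo counterpart.

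A wide peak meets another list more easily through its width alone, so the same shares were computed for the midpoint of each peak. The midpoint lay inside an S2 peak for 12.3% of the embryo peaks under 500 bp, 18.8% of those of 500 to under 1000 bp and 28.8% of those of 1000 to under 2000 bp. It did so for 43.9% of those of 2000 to under 4000 bp and 54.3% of the widest, the same order as before. The midpoint of S2 peaks lay inside an embryo peak in 37.2% of cases under 500 bp, 57.5% from 2000 to under 4000 bp and 54.1% for 4000 bp or more. For S2 peaks the rise with width thus ended at 2000 to under 4000 bp by this measure.

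**Figure D1:**
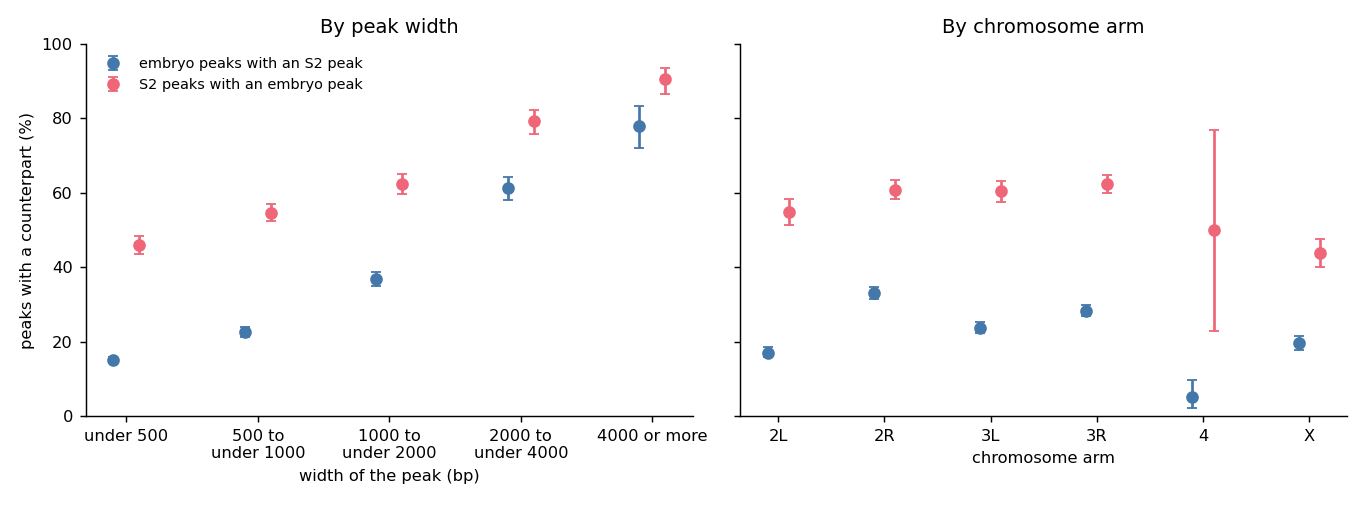
Percentage of embryo peaks that overlapped an S2 peak and of S2 peaks that overlapped an embryo peak, by width of the peak in bp (left) and by chromosome arm (right), with exact binomial 95% intervals over peaks. Both shares rose with width, from 15.1% to 78.1% for embryo peaks, and the arms X (43.8% of S2 peaks) and 4 (5.13% of embryo peaks) had the lowest values.

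The chromosome arms differed in how many embryonic peaks had an S2 counterpart. Arm 2R had the highest share with 33.2% (31.5 to 34.8) of its 3156 embryo peaks, followed by 3R with 28.3% (26.9 to 29.8) and 3L with 23.8% (22.3 to 25.3). The X chromosome had 19.6% (17.8 to 21.6) and 2L 17.1% (15.8 to 18.6), whose intervals overlap. Chromosome 4, a small chromosome rich in heterochromatin, had 8 of 156 (5.13%, 2.24 to 9.85). Arm 2L stood below 2R in each of the 3 classes under 2000 bp: 9.48% against 21.3% under 500 bp, 14.8% against 31.6% from 500 to under 1000 bp and 26.6% against 48.3% from 1000 to under 2000 bp. For embryo peaks of 4000 bp or more the values were 75.0% (56.6 to 88.5) on 2L and 78.4% (64.7 to 88.7) on 2R, with overlapping intervals. The embryo list was also cut to its 5750 widest peaks over all arms, as many as the S2 list. The numbers per arm stayed unequal, with 1040 embryo peaks on 2L and 753 on X. The shares were then 49.8% on 2R, 46.4% on 3R, 37.6% on 3L, 30.2% on 2L, 26.4% on X and 11.1% on 4. Among these wide peaks X and 2L thus changed places.

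On the autosomes the order of these shares was that of the number of S2 peaks per Mb, and X departed from it. The embryo list was spread fairly evenly over the large autosomal arms, with between 128 (2L) and 149 (2R) peaks per Mb, and had 75.9 per Mb on X. The S2 list had 70.9 peaks per Mb on 2R, 56.5 on 3R, 45.7 on 3L, 37.0 on 2L, 30.6 on X and 10.4 on chromosome 4. For each 100 embryo peaks there were 47.5 S2 peaks on 2R, 40.7 on 3R, 40.3 on X, 35.3 on 3L, 28.9 on 2L and 8.97 on chromosome 4. X thus had more S2 peaks per embryo peak than 3L but a lower share with a counterpart, and fewer S2 peaks per Mb than 2L but a slightly higher share. Copy number along the S2 genome was not measured here.

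Over all widths, S2 peaks on the X chromosome coincided with embryonic peaks less often than on any large autosomal arm. An embryo counterpart was found for 43.8% (40.0 to 47.6) of the 685 S2 peaks on X, against 60.3% (58.9 to 61.6) of the 5051 on 2L, 2R, 3L and 3R together. Among these arms the lowest was 2L with 54.9% (51.5 to 58.3) and the highest 3R with 62.4% (60.0 to 64.8). The difference was not seen in every width class. Among narrow peaks, 25.3% (19.4 to 31.9) of the X peaks under 500 bp had a counterpart, while the 4 large autosomal arms had 45.7% to 52.9%. For 500 to under 1000 bp the share on X was 38.8% (32.4 to 45.4), against 52.0% to 58.5%. From 1000 to under 2000 bp X had 54.3% (45.7 to 62.8), slightly above 2L with 53.6% (46.3 to 60.7) and below 63.1% to 67.5% on the other large arms. For the wider classes X was again the lowest, with 64.0% (52.1 to 74.8) and 83.0% (69.2 to 92.4), but with intervals that overlap those of some arms. X also held less embryonic peak sequence to be met, 7.29% of its span against 10.3% to 13.2% on those autosomal arms. X stayed the lowest arm with the midpoint rule (33.9%), against the 5750 widest embryo peaks (30.8%) and in base pairs (36.4%). Chromosome 4 had 14 S2 peaks, of which 7 overlapped an embryo peak, too few to place it among the other arms.

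In fixed bins of 500 kb, peak numbers of the 2 lists went together only loosely. Over all 244 bins Pearson's r between embryo and S2 peaks was 0.481 and Spearman's rho 0.472, as a description of bins that share their libraries and the gene density of the region. On X, with 45 bins, r was 0.0950 and rho 0.195. The median bin held 59.5 embryo and 19.0 S2 peaks, with maxima of 136 and 92. S2 peaks outnumbered embryo peaks in 12 bins, 4 of them on X and 4 on 3L. Among the 235 bins with at least 10 embryo peaks, the share of embryo peaks with an S2 counterpart ranged from 0% to 78.2% around a median of 21.2%. It was under 10% in 52 of these bins and at least 50% in 19, of which 7 were on 2R, 5 on X, 4 on 3R, 3 on 3L and none on 2L. On 2L no bin passed 44.6%.

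The bins with the highest share were on 2R, 3L, X and 3R. On 2R from 14500001 to 15000000, 43 of 55 embryo peaks (78.2%, 65.0 to 88.2) overlapped S2 peaks. On 3L from 3000001 to 3500000, 74 of 102 (72.5%, 62.8 to 80.9) did so, in the bin that also held the largest number of S2 peaks, 92. The next were X from 10000001 to 10500000 with 15 of 23, 2R from 1500001 to 2000000 with 38 of 59, and 3R from 21500001 to 22000000 with 26 of 41. At the other end, 10 bins with embryo peaks, holding 129 of them, had no peak with an S2 counterpart. The number of such bins depended on bin size and rule, with 63 at 250 kb, 3 at 1 Mb and 17 by the midpoint rule. The fullest of them lay on 2R from 21000001 to 21500000 (28 embryo peaks), on 2L from 17500001 to 18000000 (27) and on 3L from 10000001 to 10500000 (25). In the last of these the larva list had 11 and the prepupa list 22 peaks, and in the bin on 2L they had 0 and 5. On X from 14000001 to 14500000 there was no S2 peak at all, beside 14 embryo, 10 larva and 10 prepupa peaks. On 2L from 3500001 to 4000000, 1 of 77 embryo peaks (1.30%, 0.0329 to 7.02) had an S2 counterpart, and larva and prepupa had 30 and 38 peaks there.

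**Figure D2:**
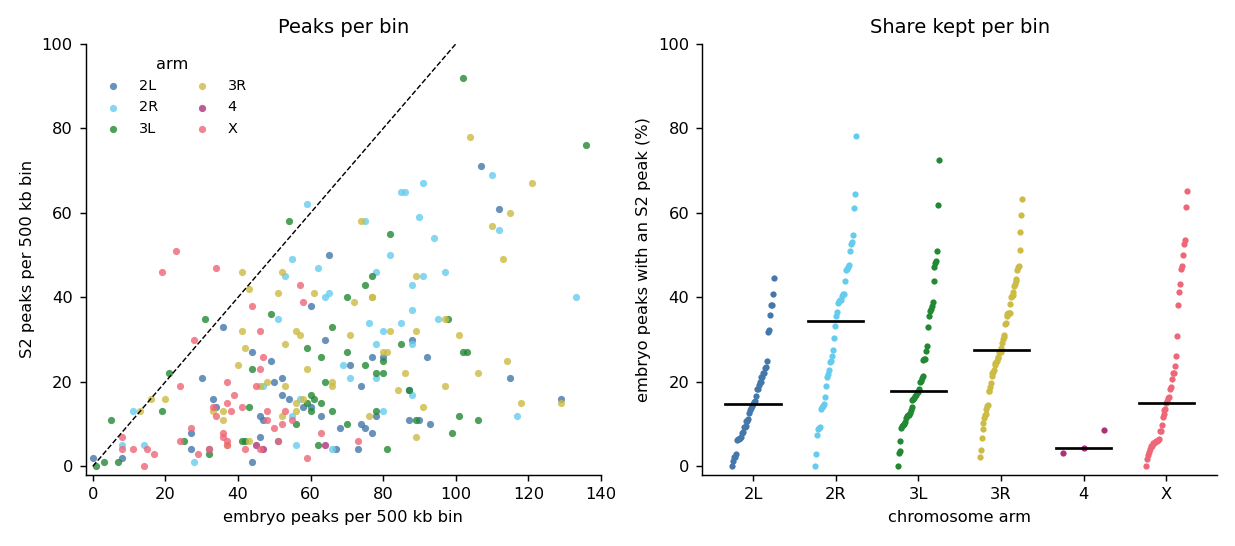
Left, embryo against S2 peaks in each of 244 bins of 500 kb, coloured by arm, with a dashed line of equal numbers. Right, the percentage of embryo peaks with an S2 peak in each of the 235 bins with at least 10 embryo peaks, sorted within each arm, with the median of the arm as a bar. Most bins lie below the line of equal numbers, and the median share is highest on 2R at 34.4% and lowest on chromosome 4 at 4.44%.

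Embryonic peaks with and without an S2 counterpart lay in blocks. After an embryo peak with a counterpart, the next embryo peak on the arm also had one in 56.3% (54.7 to 57.9) of 3748 cases. After one without, the share was 14.6% (13.9 to 15.2) of 11259. Part of this is built in, since 637 of the paired S2 peaks (19.0%) each spanned 2 or more embryo peaks. At gaps of 10 kb or more between the neighbours the shares were 32.5% (28.2 to 37.1) and 17.8% (16.1 to 19.6). At gaps under 2 kb they were 65.4% and 13.5%. S2 peaks had the same order, with 68.4% (66.8 to 70.0) after a peak with and 44.2% (42.2 to 46.2) after a peak without an embryo counterpart.

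The longest uninterrupted series of embryo peaks without an S2 counterpart was on 3L from 12546774 to 13208068. It comprised 109 consecutive embryo peaks with a median width of 503 bp over 661 kb, among which 4 S2 peaks lay without overlapping any of them. Of the 109 peaks, 25 overlapped a larva or prepupa peak. On 3R from 6257979 to 6709944 there were 97 such embryo peaks and 1 S2 peak, with 25 found in larvae or prepupae. On 2L from 14237598 to 14594956 there were 90 embryo peaks and 0 S2 peaks, and 15 of the 90 were found in a later stage. On X the longest run, from 17521357 to 18158534, had 66 embryo peaks, of which 38 overlapped a larva or prepupa peak, and 1 S2 peak lay there. Among all embryo peaks without an S2 counterpart, 26.2% were found in a later stage, with 27.2% on 3L, 22.0% on 3R, 23.0% on 2L and 43.9% on X. The runs on 3L and 2L were thus below the share of their arm, and that on 3R was slightly above it. The run on X, with 38 of 66, was above the 43.9% of its arm, which was itself the highest of these shares. Whether the runs differ from their arms was not tested. On 2R, 57 embryo peaks followed each other from 18961996 to 19452782 without a counterpart, and on chromosome 4 the longest run was 60 peaks from 580219 to 1043783. Over larger distances, 2L from 14000001 to 16000000 held 218 embryo peaks, of which 10 (4.59%) had an S2 counterpart. X from 6000001 to 7500000 held 138 with 7 (5.07%), while larva and prepupa had 101 and 129 peaks in that stretch.

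The longest series of embryo peaks with S2 counterparts were shorter. This follows in part from their lower number, since 25.0% of all embryo peaks had a counterpart. On 2R from 6959278 to 7107584, 28 consecutive embryo peaks all met S2 peaks, of which there were 24, covering 67458 bp against 30541 bp in the embryo. On 3L from 606913 to 656952, 24 embryo peaks over 50040 bp faced 9 S2 peaks. A single broad S2 peak met 11 of the 28 embryo peaks on 2R, and another met 10 of the 24 on 3L. The other runs were 17 peaks on 2L from 470219 to 505200, and 15 each on 3R from 25568243 to 25603789 and on X from 1963803 to 1990343. Chromosome 4 had no run above 2.

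Where embryo and S2 peaks met, neither list was broader in general. Overlapping peaks were joined into 2791 shared regions, in which the embryo list covered 5.09 Mb and the S2 list 5.31 Mb. The median ratio of S2 to embryonic covered bp was 0.969 (0.946 to 0.997, an exact interval for the median over regions), with quartiles of 0.595 and 1.52. S2 cells had at least 2 times the embryonic bp in 462 regions (16.6%, 15.2 to 18.0), the embryo at least 2 times the S2 bp in 542 (19.4%, 18.0 to 20.9), and 1787 lay between. The median depended on the peaks taken: it was 1.05 when peaks up to the median width of their list were left out. That cut lay at 540 bp in the embryo and at 722 bp in S2 cells. It was thus higher for S2 peaks, and no change of direction is read from the 1.05. Relative to the same median peak width of each list, the median ratio was 0.725, and the regions with S2 broader fell to 293. With the wide peaks alone there were 242 of 1512.

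Most shared regions, 1894 (67.9%), consisted of 1 embryo and 1 S2 peak. In these the S2 peak lay wholly inside the embryo peak in 629 cases (33.2%), the embryo peak inside the S2 peak in 420 (22.2%), and the ends were staggered in 845 (44.6%). The midpoints were 222 bp apart in the median, and widths of paired peaks were weakly related (Spearman's rho 0.255 over the pairs). Where 1 S2 peak covered several embryo peaks (439 regions), the median ratio was 1.34 (1.29 to 1.42). Where 1 embryo peak covered several S2 peaks (291 regions), it was 0.745 (0.705 to 0.796). These ratios follow in part from the grouping, because a peak that meets several others also covers the gaps between them. Of single peaks over groups, there were 637 of the 3351 paired S2 peaks (19.0%) over 2 or more embryo peaks and 477 of the 3749 paired embryo peaks (12.7%) over 2 or more S2 peaks. The embryo list is the denser, with 125 peaks per Mb against 47.8, so an S2 peak had more peaks to meet at any given width.

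The median ratio did not change in 1 direction with the breadth of the region. In the 157 regions whose widest peak in either list was under 500 bp it was 1.16 (1.09 to 1.21). It was 0.928 in 579 regions from 500 to under 1000 bp, 0.866 (0.808 to 0.912) in 935 from 1000 to under 2000 bp and 0.956 (0.901 to 1.02) in 765 from 2000 to under 4000 bp. In the 355 regions whose widest peak reached 4000 bp or more in either list the median ratio was 1.26 (1.15 to 1.37). The narrowest peak was 340 bp in the S2 and 280 bp in the embryo list, and the part of this in the narrowest regions was not tested. On X the median ratio was 1.13 (1.01 to 1.27) over 258 regions. There, 70 regions (27.1%, 21.8 to 33.0) had at least 2 times more bp in S2 cells, against 392 of 2526 (15.5%, 14.1 to 17.0) on the 4 large autosomal arms, where the median was 0.964 (0.937 to 0.987).

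**Figure D3:**
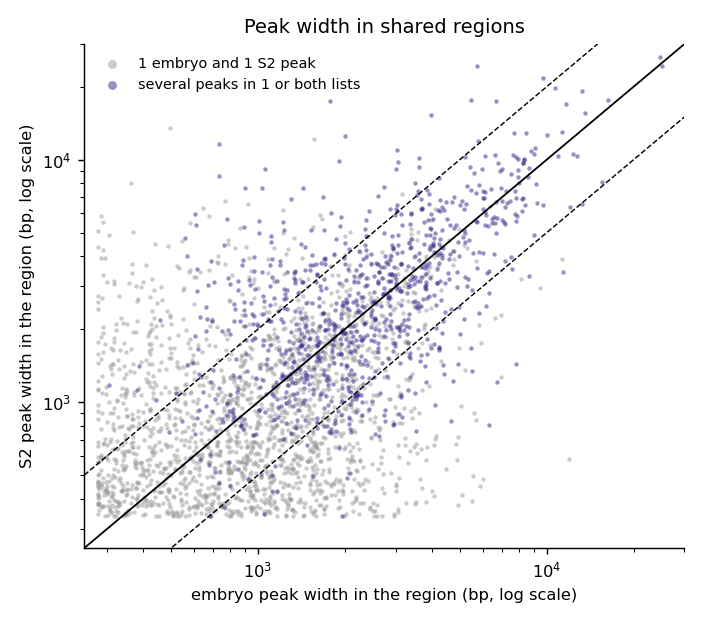
Total width of the S2 peaks against that of the embryo peaks in each of the 2791 shared regions, both in bp on log scales. The solid line marks equal widths and the dashed lines a ratio of 2 in either direction. The cloud lies on both sides of equality, with 462 regions at or above the upper and 542 at or below the lower dashed line.

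The largest surplus of S2 peak sequence was on X from 19037312 to 19061635, where 2 S2 peaks covered 24241 bp and 5 embryo peaks 5727 bp. Larva and prepupa, with 9 and 19 peaks, covered 11216 and 12436 bp of it. On 3L from 8677273 to 8694726 a single S2 peak of 17454 bp lay over 4 embryo peaks with 1779 bp in all. On 3L from 3238839 to 3252330 an S2 peak of 13492 bp lay over 1 embryo peak of 495 bp, and the widest larval peak there spanned 13289 bp, nearly the same as in S2 cells. A neighbouring region on 3L, from 3428909 to 3441092, had an S2 peak of 12184 bp over an embryo peak of 1562 bp, but larva and prepupa covered no more than 1463 and 725 bp. On 3R from 5903986 to 5916511 the S2 peak had 12526 bp, the single larval peak 11062 bp and the 4 embryo peaks 1996 bp together. On 3R from 20389297 to 20400889 the values were 11593 bp in S2 cells, 734 bp in embryos, 9011 bp in larvae and 4901 bp in prepupae. The other regions among the 10 with the largest surplus were on 3R from 25595448 to 25613152 and from 6205955 to 6221520, on X from 7588017 to 7605453 and at 6967214 to 6991094 of 2R. There, 1 S2 peak of 21180 bp, on 2R from 6967214 to 6988393, met 11 embryo peaks, more than any other S2 peak. S2 peaks over 10 embryo peaks each were found on 2R from 2018227 to 2036969 and on 3L from 621546 to 642877. All 10 regions of S2 surplus held larval and prepupal peaks. Of all 266 paired S2 peaks of 4000 bp or more, 92.1% overlapped peaks of both stages, counted by peak and not by joined region. Nothing particular to these 10 is therefore read from this.

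The embryo was far broader in other places. On 2R from 19457929 to 19470254 an embryo peak of 11990 bp met an S2 peak of 580 bp at its edge, and larva and prepupa covered 986 and 1362 bp. On 3R from 626852 to 638278 an embryo peak of 11427 bp contained 6 S2 peaks with 3451 bp together. On 3L from 10666847 to 10678143 the embryo had 11297 bp and S2 cells 3905 bp, and on 2L from 19154514 to 19167776 the embryo had 13263 bp and S2 cells 6571 bp. In both of these the larva (9875 and 11283 bp) and the prepupa (9025 and 10377 bp) covered nearly as much as the embryo. On 2R from 18564165 to 18579959, 2 embryo peaks covered 15513 bp and 4 S2 peaks 8077 bp.

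The widest embryo peak without any S2 counterpart measured 11709 bp, on 3R from 27522023 to 27533731, with the nearest S2 peak 3974 bp away. It was followed by 8677 bp on 3R from 798534 to 807210, 8083 bp on 2R from 2480322 to 2488404 and 7355 bp on 3R from 21415997 to 21423351. In these 4 places the later stages had little of the domain: larvae covered 2813, 851, 0 and 345 bp of it and prepupae 3560, 1112, 359 and 461 bp. A pair of neighbouring embryo peaks on X, from 6875219 to 6881373 and from 6890078 to 6895938, lay 109303 and 94738 bp from the nearest S2 peak. There the larva covered 5814 and 4509 bp and the prepupa 5222 and 3456 bp of the embryonic 6155 and 5861 bp. On 3L from 19549120 to 19554797 the larva covered all of the 5678 bp of the embryo peak. The remaining 3 of the 10 widest were on 2R from 15141263 to 15146701 and from 9450467 to 9455651 and on 3R from 4671501 to 4676721. All 10 overlapped a prepupal peak and 9 a larval peak. Of all 48 embryo peaks of 4000 bp or more without an S2 counterpart, 44 (91.7%) overlapped a peak of either stage.

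Embryo peaks without an S2 counterpart had a median distance of 11600 bp to the nearest S2 peak. Of these embryo peaks, 53.3% lay 10 kb or more away and 10.9% within 1 kb. Whether this is far for the density of the S2 list was not tested. The median was 7008 bp on 2R, 8445 bp on 3R, 12047 bp on 3L, 15785 bp on 2L, 24076 bp on X and 38465 bp on chromosome 4. The order is that of the density of S2 peaks.

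For S2 peaks without an embryo counterpart, the median distance to the nearest embryo peak was 2365 bp (2128 to 2579). This is not comparable with the 11600 bp above, since the embryo list is the denser, and no reference distance was computed for either. Of the 2399 peaks, 720 (30.0%) lay within 1 kb and 460 (19.2%) at 10 kb or more. On X and 2L the medians were higher, 3714 bp (2816 to 4299) and 3300 bp (2795 to 3839), against 1764 bp on 3R and 1848 bp on 2R. The widest peak of this kind, 10554 bp on 3L from 2568595 to 2579148, ended 64 bp from an embryo peak. The next, 7835 bp on X from 21594860 to 21602694, was isolated, 92977 bp from any embryo peak and without a larval or prepupal peak. On X from 10425272 to 10430784 a peak of 5513 bp was likewise without a counterpart in all 3 other lists. On 3R from 14271226 to 14277180 an S2 peak of 5955 bp, 32152 bp from the nearest embryo peak, was covered by larval peaks over 4635 bp. Among the 10 widest, 8 overlapped a larval or prepupal peak, against 24 of all 28 (85.7%) of 4000 bp or more. The other 6 were on 3R from 21929049 to 21936534, from 19838038 to 19843333 and from 4944696 to 4949902, on 2L from 13070711 to 13077781 and from 8699580 to 8705549, and on X from 2087348 to 2092645.

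Over all arms, 41.7% of S2 peaks had no embryo counterpart. The 5 bins with the most of these were X from 10000001 to 10500000 (37 added of 51 S2 peaks), 2R from 3500001 to 4000000 (36 of 65), X from 9500001 to 10000000 (36 of 46), 3R from 5000001 to 5500000 (34 of 78) and X from 3000001 to 3500000 (34 of 47). The bin on 3R was close to the overall share, while in the bin on 2R and the 3 bins on X most S2 peaks were without a counterpart. By arm, the share without a counterpart was 56.2% on X, 39.1% on 2R and 37.6% on 3R. Summed over the arm, X thus also had a majority without a counterpart, with these 3 bins included. Single bins on X differed, for example 18 added of 43 S2 peaks from 1500001 to 2000000 and 12 of 14 from 6000001 to 6500000. The adjoining bins on X from 9500001 to 10500000 had 19 and 23 embryo peaks, 15 and 23 larval peaks and 22 and 32 prepupal peaks. In them S2 cells had more peaks than any animal stage. The longest series of S2 peaks with no embryo counterpart had 18 peaks on 3R from 21926672 to 22087731, a stretch of 161 kb with 1 embryo, 4 larval and 11 prepupal peaks. It includes the added peak of 7486 bp named above. The X had a series of 16 from 5822503 to 6486554, among 43 embryo peaks that they did not overlap, and 3L a series of 14 from 1967167 to 2256184. On chromosome 4, 4 of the 14 S2 peaks lay in series from 1270599 to 1277814, where no other list had a peak.

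Sites common to embryo and S2 cells were also found at later stages more often than sites of either alone. Of the embryo peaks with an S2 counterpart, 70.5% (69.0 to 72.0) overlapped a larval or prepupal peak, against 26.2% (25.3 to 27.0) of those without. For S2 peaks the shares were 72.0% (70.5 to 73.6) with and 29.4% (27.6 to 31.3) without an embryo counterpart. The difference held within each width class under 4000 bp. For embryo peaks under 500 bp the shares were 47.5% (44.5 to 50.6) and 14.7% (13.8 to 15.6), and from 2000 to under 4000 bp they were 95.0% (92.9 to 96.6) and 71.7% (66.9 to 76.2). For S2 peaks they were 50.1% (46.5 to 53.6) and 20.0% (17.4 to 22.7) under 500 bp, and 92.9% (90.4 to 95.0) and 61.2% (52.4 to 69.5) from 2000 to under 4000 bp. At 4000 bp or more nearly all peaks of either kind were found in later stages, 98.2% and 91.7% of the embryo peaks and 97.0% and 85.7% of the S2 peaks, with overlapping intervals. Of the unpaired peaks wider than the median of their list, 40.4% in the embryo and 44.9% in S2 cells overlapped a larval or prepupal peak.

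**Figure D4:**
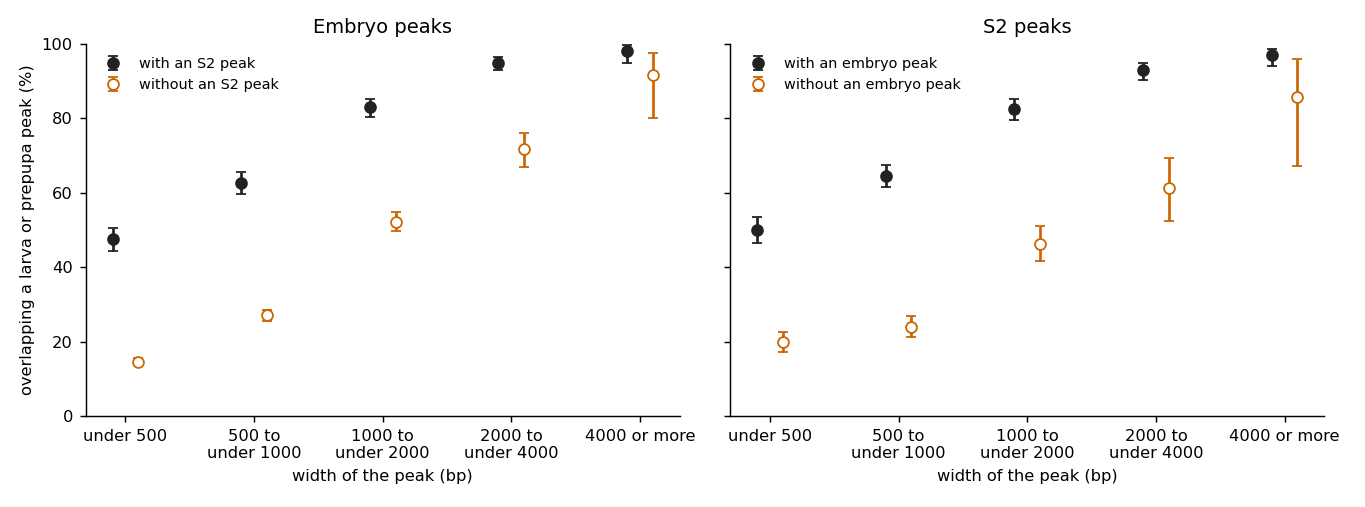
Percentage of embryo peaks (left) and S2 peaks (right) that overlapped a larval or prepupal peak, by width in bp, for peaks with (filled) and without (open) a counterpart in the other list of the pair, with exact binomial 95% intervals over peaks. Filled points lie above open ones in every class, and the intervals overlap at 4000 bp or more.

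Embryo peaks absent from S2 cells were seen at later stages most often on X. There 43.9% (41.2 to 46.6) of 1367 overlapped a larval or prepupal peak, against 23.6% (22.8 to 24.5) of 9749 on 2L, 2R, 3L and 3R. For embryo peaks with an S2 counterpart the shares were 81.7% (77.2 to 85.7) on X and 69.4% (67.8 to 70.9) on those arms. The median width of embryo peaks without a counterpart was 559 bp on X and 476 bp on those arms. With a counterpart it was 916 and 917 bp. The part of width in these shares was not tested. S2 peaks without an embryo counterpart had closer values, 30.6% (26.1 to 35.5) on X and 29.3% (27.3 to 31.3) on the autosomal arms, and between 24.9% on 2R and 36.9% on 3L among the latter. On chromosome 4 none of the 7 added S2 peaks overlapped a larval or prepupal peak, while 45 of the 148 absent embryo peaks (30.4%, 23.1 to 38.5) did.

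The median breadth of shared regions in larvae lay between the medians of embryo and S2 cells where these differed by 2 times or more. In the 304 regions with S2 broader that held larval peaks, the median was 768 bp in embryos, 1985 bp in larvae and 2897 bp in S2 cells. In the 423 regions with the embryo broader it was 2048 bp in embryos, 1390 bp in larvae and 599 bp in S2 cells. Single regions varied: larval peaks were longer than the embryonic ones in 83.2% of the former regions and 21.5% of the latter. Prepupal medians were 1553 bp (313 regions) and 1196 bp (320 regions). The embryo and S2 values chose these regions, so an intermediate value in another list follows in part from the choice. Larval peaks were present in 65.8% (61.3 to 70.1) of the regions with S2 broader and 78.0% (74.3 to 81.5) of those with the embryo broader. In the 1787 regions within 2 times the share was 70.3% (68.1 to 72.4). Prepupal peaks were present in 67.7% (63.3 to 72.0) and 59.0% (54.8 to 63.2), against 60.3% (58.0 to 62.6) within 2 times. For prepupae the regions with the embryo broader were thus near the share of the regions between.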

How the data were processed

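The authors deposited each list of peaks with 3 columns (chromosome, start, end) and no score. Per the submitters' processing notes, BWA and MACS2 were used, with build dm3. Software versions, calling threshold, pooling and whether inputs entered the calling are not given in the sources at hand. Depth is unknown, so list length and binding cannot be told apart, and the narrowest peak on the arms was 280 bp in the embryo and 340 bp in the S2 list.

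Peaks sharing at least 1 bp were paired, and overlapping peaks were joined into shared regions. Bins of 500 kb start at position 1 of each arm and take peaks by midpoint. Pairing was checked on simulated peaks. No test was made, as there is 1 list per group. The regions named are those with the largest surplus in either list, the 10 widest unpaired peaks of each list, the 5 bins at either end and with most added peaks, the longest runs on each arm and the S2 peaks over most embryo peaks. Members and rules were chosen with earlier results of these data known. The measures of neighbouring peaks, stretches of bins and later stages by region class were added after the values were seen. Python 3.11.15, numpy 2.4.6, scipy 1.17.1, pandas 2.3.3 and matplotlib 3.10.9 were used.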

Additional observations from a re-analysis of the deposited data

Results flagged for a closer look

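Peaks outside the main arms entered none of the comparisons. They made up 4.94% (4.41 to 5.52) of the S2 list, 299 peaks, and 2.34% (2.10 to 2.59) of the embryo list, 359 peaks. These peaks lie in sequence that was not otherwise used. Their share is above the 0.0496% that a count of 3 peaks would give in the S2 list, a low limit set for flagging. Whether they reflect Cmi binding was not tested. Of the S2 peaks, 219 were on the unplaced sequences U and Uextra, 75 on the heterochromatic ones and 5 on the mitochondrial genome. An embryo counterpart was found for 32 of the 299 (10.7%, 7.44 to 14.8).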

How the results depend on the processing

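There is 1 list per source, so no replicate could be left out, and no paired analysis was possible because the groups have no replicates. Limits are the unknown depth, the unequal list lengths and the missing scores. The shares of S2 peaks in the embryo and of embryo peaks in S2 cells were 53.3 and 22.5% when 50% of the shorter peak had to be covered, 45.6 and 19.7% by the midpoint rule, 40.5 and 15.7% with every peak set to 500 bp, 61.2 and 25.7% with peaks closer than 500 bp joined, and 43.8 and 39.5% with equal numbers of peaks. Equal numbers means the embryo list cut to its 5750 widest peaks over all arms, which left the numbers per arm unequal. On all chromosomes the S2 share was 55.9%. The median ratio of S2 to embryonic bp was 0.919 in pairs of 1 and 1 peak, 0.725 relative to each list's median and 0.881 with near peaks joined. It was, reversed, 1.05 without the narrower peaks of each list. That cut lay at a larger width in S2 cells than in the embryo, and the cause was not tested. Regions with S2 at least 2 times broader numbered 293 relative to each list's median and 242 with wide peaks, which leaves fewer regions. The embryo share by arm (2L, 2R, 3L, 3R, X) was 13.0, 26.1, 18.8, 22.4 and 16.4% by the midpoint rule and 30.2, 49.8, 37.6, 46.4 and 26.4% with equal numbers, with 11.1% on 4, and 20.2% on 2L in base pairs. The S2 share by arm, in the same order, was 42.5, 46.3, 47.6, 50.3 and 33.9% by the midpoint rule, 40.9, 45.1, 45.4, 48.6 and 30.8% with equal numbers and 46.2, 50, 45.9, 49.1 and 36.4% in base pairs. Bins without a kept embryo peak numbered 63 at 250 kb, 3 at 1 Mb and 17 by the midpoint rule. The share of unpaired peaks found in later stages was 44.9% (S2) and 40.4% (embryo) with wide peaks and 26.7 and 23.9% with 50% of the shorter peak covered. It was 24.8% for S2 peaks at least 10 kb from the embryo list, an alternative chosen after seeing the data. The median distance of unpaired S2 peaks was 3269 bp between midpoints and 2822 bp on all chromosomes. The other 19 combinations of a result and an alternative kept their values within the interval of the main value, or counts within 1.5 times.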
